A study of Mus musculus with 16 samples.

Results

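The respiratory chain and ATP synthase of the mouse liver were followed through 96 genes, 83 of the nuclear genome and 13 of mitochondrial DNA (mtDNA), among 50559 gene symbols in the counts. Nuclear members were chosen by symbol (the Nduf, Sdh, Uqcr, Cox and Atp5 families, without symbols marked -ps as pseudogenes). The mitochondrial members are the protein-coding genes of mtDNA. Complex I had 37 nuclear and 7 mitochondrial members, complex II 4 nuclear, complex III 8 nuclear and 1 mitochondrial, complex IV 17 nuclear and 3 mitochondrial, and ATP synthase 17 nuclear and 2 mitochondrial. Cox4i1, Cyc1 and Ndufab1 are subunits whose symbols fall outside this rule, and they are given with the other genes of the pathway. Complexes were assigned by symbol too, so Ndufa4 is counted in complex I, although it is also described as a subunit of complex IV.

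The chain passes electrons from NADH (complex I) and succinate (complex II) through complexes III and IV to oxygen, and ATP synthase uses the resulting proton gradient to make ATP. All complexes but complex II are assembled from subunits of both genomes. mtDNA is transcribed into long precursors that are cut into mRNAs, ND6 alone coming from the opposite strand, while the nuclear subunits have their own promoters. ATP8 overlaps ATP6 by 43 bases and ND4L overlaps ND4 by 7, and each pair stays on a shared mRNA. Below, each mitochondrial gene is counted as an mRNA of its own. Hepatocytes are rich in mitochondria and rely on them for fatty acid oxidation, the urea cycle and gluconeogenesis.

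The 16 libraries were made from livers of male C57BL/6J mice, 4 in each of 4 groups that were compared for the effect of diet and of 2 ways to lower ketohexokinase (KHK), the first enzyme of fructose breakdown. The mice were 6 weeks old when the diets began, ate them for 10 weeks and were treated for the last 4 weeks. The LFD group ate a low-fat diet, which the labels call chow, and the HFD group a high-fat diet. Mice of both groups were injected every 2 weeks with an siRNA against luciferase as a control (10 mg/kg) and gavaged 2 times a day with methylcellulose. The HFD + siRNA group received KHK siRNA (20 mg/kg, conjugated for uptake by hepatocytes) with methylcellulose. Mice of the HFD + Inhib group had the luciferase siRNA together with the systemic KHK inhibitor PF-06835919 (15 mg/kg by gavage 2 times a day). Mice of the study were given saline or insulin shortly before the tissue was taken, and which library had which is not given in the sources used here. Library totals ranged from 24317111 to 35820234 expected counts.

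Khk itself was measured first, as a check on the labels. Its level was 214, 233, 349 and 269 CPM (counts scaled to a common library total) in LFD, 251, 322, 233 and 251 in HFD, 11.8, 9.14, 18.1 and 11.5 in HFD + siRNA, and 112, 152, 94.6 and 120 in HFD + Inhib. Khk fell by 4.38 on the log2 scale with siRNA (SE 0.23, adjusted p = 1.9e-08) and by 1.14 with the inhibitor (SE 0.20, adjusted p = 0.00075, edgeR's quasi-likelihood test for both), without overlap with HFD. Its level does not check the diet labels, with a value of -0.01 in HFD versus LFD (adjusted p = 0.975) and overlapping groups. All 7 hepatocyte markers were measured in every group, with Alb at 57224 ± 6897 CPM in LFD (SD, n = 4) and 29925 ± 1759 in HFD + Inhib.

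Some libraries stood apart before any gene was compared. The 13 mitochondrial mRNAs took 2.21%, 3.48%, 3.03% and 5.63% of the counts in LFD, 6.78%, 5.65%, 10.4% and 7.70% in HFD, 3.80%, 3.85%, 3.6% and 3.42% in HFD + siRNA, and 7.89%, 8.62%, 12.4% and 8.87% in HFD + Inhib. LFD replicate 4 was the highest of its group, close to the lowest HFD library, and the third replicates of HFD and HFD + Inhib were the highest of theirs. The 7SL RNA of the signal recognition particle, made by Rn7s1 and Rn7s2, ran the other way, with 14.5%, 9.47%, 13.2% and 9.89% in LFD, 7.52%, 7.23%, 3.44% and 7.01% in HFD, 13%, 9.31%, 13.9% and 11.2% in HFD + siRNA, and 10.5%, 10.0%, 3.65% and 5.99% in HFD + Inhib. The lowest shares were again those of HFD replicate 3 and HFD + Inhib replicate 3. Leftover mitochondrial rRNA was 0.147% of the counts in LFD replicate 4 against at most 0.0125% in the other LFD libraries, while it was 0.0657% to 0.114% on HFD, 0.00529% to 0.0453% with siRNA and 0.0766% to 0.119% with the inhibitor. Malat1, a nuclear non-coding RNA, took 0.460% ± 0.0967 of the counts on LFD, 0.669% ± 0.0423 on HFD, 0.471% ± 0.0171 with siRNA and 0.605% ± 0.0898 with the inhibitor (SD, n = 4). Both were higher, on average, in the groups with more mitochondrial mRNA and 7SL RNA was lower there, and their part in the results was not tested.

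The libraries also differed in base composition. Across genes, the fold changes ran with the GC content of the transcripts, with a Spearman correlation of -0.50 for HFD versus LFD, 0.48 for HFD + siRNA versus HFD, -0.27 for HFD + Inhib versus HFD and -0.51 for HFD + Inhib versus HFD + siRNA (8355 genes each). Mitochondrial mRNAs are poor in GC, with a median of 37.1% against 52.4% for the nuclear members and 50.4% for the genes tested. Counts over all mitochondrial and all nuclear members are therefore given also after the trend with GC content and length was removed from each library. This correction covers 13 mitochondrial and 76 nuclear members. Counts of regulators and of cell markers are given without it. In bulk RNA, fewer cells of a type and less RNA per cell cannot be told apart.

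**Figure D1:**
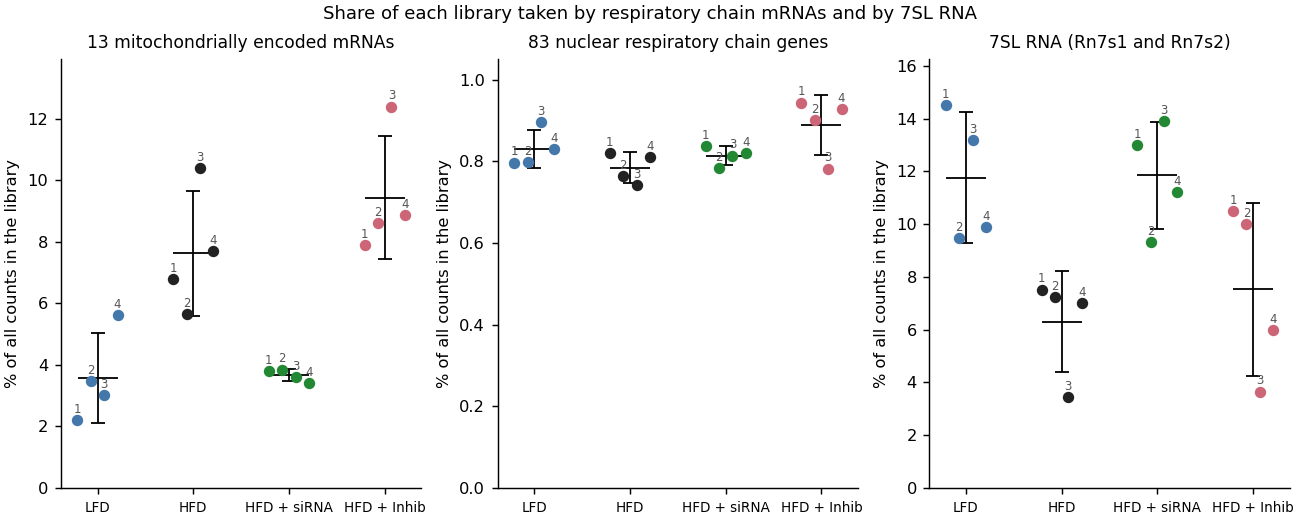
Share of all counts in each library (percent, y axis) taken by the 13 mitochondrially encoded mRNAs, the 83 nuclear members and 7SL RNA, by group. Points are libraries with their replicate number, and bars show the mean ± SD of 4. Mitochondrial mRNAs were 3.42% to 3.85% in HFD + siRNA and 7.89% to 12.4% in HFD + Inhib, with the third library of HFD and of HFD + Inhib highest in mitochondrial and lowest in 7SL RNA.

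Messenger RNA from mtDNA took 2.21% to 12.4% of the counts over the 16 libraries, and the nuclear members together 0.742% to 0.944%. The mitochondrial counts were 2.77, 4.35, 3.38 and 6.79 times those of the nuclear members in LFD, 8.26, 7.40, 13.9 and 9.51 times in HFD, 4.53, 4.92, 4.42 and 4.16 times in HFD + siRNA, and 8.35, 9.57, 15.8 and 9.57 times in HFD + Inhib. Every HFD and HFD + Inhib library was above every LFD and HFD + siRNA library in this ratio.

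HFD raised all 13 mitochondrial mRNAs over LFD, while 9.58% of the 18335 genes tested were called higher in this comparison. Their median log2 fold change was 1.07, beside a median of -0.01 over all genes. Groups did not overlap for 5 of the 13 (ATP8, ND3, ND4, ND5 and ND6), a pattern that 10.7% of all genes showed in this direction. With LFD replicate 4, HFD replicate 3 and HFD + Inhib replicate 3 left out together, 13 were again called, with a median of 1.27. These libraries were chosen after their shares of mitochondrial mRNA had been seen, so this count is no independent check. After the GC and length correction 8 were called higher (background 8.56%), with a median of 0.54, and the other 5 (ND1, ND2, ND4, COX1 and COX2) had values of 0.31 to 0.49.

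ATP8, a small membrane subunit of ATP synthase, had the largest difference of any mitochondrial member. Its level was 59.9, 120, 95.3 and 464 CPM in LFD and 788, 724, 1611 and 1194 CPM in HFD. It was 98.4, 197, 109 and 156 CPM in HFD + siRNA and 1206, 1154, 2264 and 1648 CPM in HFD + Inhib. Every HFD and HFD + Inhib library was above every library of the other groups, LFD replicate 4 being the nearest. ATP8 rose by 2.55 on the log2 scale in HFD versus LFD (SE 0.51, adjusted p = 0.00359), fell by 2.95 in HFD + siRNA versus HFD (SE 0.52, adjusted p = 0.00264) and was 3.48 higher in HFD + Inhib than in HFD + siRNA (SE 0.53, adjusted p = 0.00014, edgeR's quasi-likelihood test for all). The corrected values were 2.73, -2.75 and 2.58, all called.

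The coding sequence of ATP8 is shown because its reading frame overlaps that of ATP6. It lies at chrM:7766-7969 on the plus strand of the GRCm38 build, and its 204 bases hold 31.9% GC, the lowest of the mitochondrial members. The capitals mark the last 43 bases (21.1% of the gene), which ATP6 shares.
ATP8: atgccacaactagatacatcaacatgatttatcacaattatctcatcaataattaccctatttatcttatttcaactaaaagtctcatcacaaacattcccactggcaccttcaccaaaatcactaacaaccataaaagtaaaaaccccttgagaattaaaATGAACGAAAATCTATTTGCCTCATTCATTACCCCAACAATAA

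ATP6, the proton channel subunit of ATP synthase, changed by less than its neighbour. It was 968, 1224, 1316 and 3164 CPM in LFD, 4055, 2776, 6824 and 5047 in HFD, 1603, 1849, 1574 and 1485 in HFD + siRNA, and 5487, 6863, 8825 and 5635 in HFD + Inhib. LFD replicate 4 lay above HFD replicate 2, and the HFD + siRNA libraries lay below all libraries of HFD. ATP6 rose by 1.49 with HFD (SE 0.32, adjusted p = 0.00597) and fell by 1.52 with siRNA (SE 0.32, adjusted p = 0.00745, edgeR's quasi-likelihood test). Why it changed by less than ATP8, which lies on the same mRNA, was not tested. In words of 50 bases, 99.5% of ATP6 is also found in Gm10925, a nuclear copy of mtDNA that shared its reads. ATP6 received 46.8% to 57.3% of the counts of the pair, whose sum was 3271 ± 1964 CPM for LFD, 8786 ± 3099 for HFD, 3106 ± 299 for HFD + siRNA and 12477 ± 2647 for HFD + Inhib (SD, n = 4).

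The 7 mitochondrial subunits of complex I form the membrane arm that pumps protons. They rose in HFD versus LFD by 0.96 (ND1, ND4L) to 1.45 (ND6), fell in HFD + siRNA versus HFD by 0.84 (ND5) to 1.40 (ND6) and were higher by 1.36 (ND5) to 1.87 (ND6) in HFD + Inhib than in HFD + siRNA. ND6, which is transcribed from the other strand, was 185, 304, 169 and 594 CPM in LFD, 757, 609, 1193 and 866 in HFD, 345, 351, 279 and 325 in HFD + siRNA, and 1261, 1015, 1311 and 1158 in HFD + Inhib. The HFD and HFD + Inhib libraries of ND6 did not overlap those of LFD or HFD + siRNA. ND3 was also higher in HFD and HFD + Inhib, without overlap with the other groups, with 412 ± 147, 1025 ± 300, 392 ± 46.6 and 1418 ± 176 CPM (SD, n = 4) when the groups are taken as LFD, HFD, siRNA-treated and inhibitor-treated, the order used from here on.

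COX1, the catalytic subunit of complex IV, had the smallest difference of the 13 in HFD versus LFD. It was 8203, 11427, 11152 and 17615 CPM in LFD and 17375, 14454, 26052 and 18823 in HFD, and LFD replicate 4 lay within the HFD range. Its rise of 0.66 (SE 0.22, adjusted p = 0.0490, edgeR's quasi-likelihood test) was at the threshold and was 0.31 and not called after the correction. COX2 rose by 0.86, and COX3 and cytochrome b (CYTB) of complex III each by 1.0 (adjusted p = 0.013, 0.00873 and 0.00831).

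KHK siRNA lowered 12 of the 13 mitochondrial mRNAs relative to HFD, while 6.55% of all genes tested were called lower. The median log2 fold change was -1.20 (all genes 0.02). CYTB had the remaining value, -0.68 (SE 0.23, adjusted p = 0.0666, edgeR's quasi-likelihood test), at 5725, 5686, 5255 and 4901 CPM in HFD + siRNA against 7582, 6299, 11853 and 8884 in HFD. For all 13, every HFD + siRNA library lay below every HFD library, a pattern that 10.4% of the genes tested showed in this direction. The HFD + siRNA libraries were also the most alike, with a median SD of 0.13 on the log2 scale over the 13 mRNAs, against 0.57 in LFD, 0.41 in HFD and 0.29 in HFD + Inhib. After the correction 6 were lower (ATP6, ATP8, ND3, ND4L, ND6 and COX3; background 5.41%), with a median of -0.45. Without HFD replicate 3 the uncorrected count was 7.

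With the inhibitor none of the 13 was called against HFD, in either direction, with a median of 0.47 (all genes 0.00) and values of 0.29 (COX1) to 0.56 (ND1). By DESeq2 the count was 0 as well, and an unadjusted p under 0.05 in edgeR's quasi-likelihood test was reached by 3 of 13, all higher. Backgrounds here were 9.80% higher and 8.42% lower. Groups did not overlap for 3 (COX2, COX3 and ND3), all higher with the inhibitor, beside 12.4% of all genes. After the correction none was called either (backgrounds 10.0% higher and 11.4% lower), with a median of 0.24. The corrected values ran from -0.17 (ATP8) to 0.35 (ND1), and ND4L was also below 0, at -0.10. Without the 3 libraries that stood apart the uncorrected count was 4 of 13 higher, and without HFD replicate 3 alone it was 2. These libraries were chosen after their shares of mitochondrial mRNA had been seen, so neither count is an independent check.

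Set directly against each other, both treatments differed in all 13 mitochondrial mRNAs, each higher in HFD + Inhib than in HFD + siRNA with no overlap between the groups. The median difference was 1.61, and 17.3% of all genes tested were called higher. The correction left 12 of 13 (background 13.9%), with a median of 0.70 and COX1 not called at 0.47. These comparisons share the HFD or the treated libraries and are not independent of each other.

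**Figure D2:**
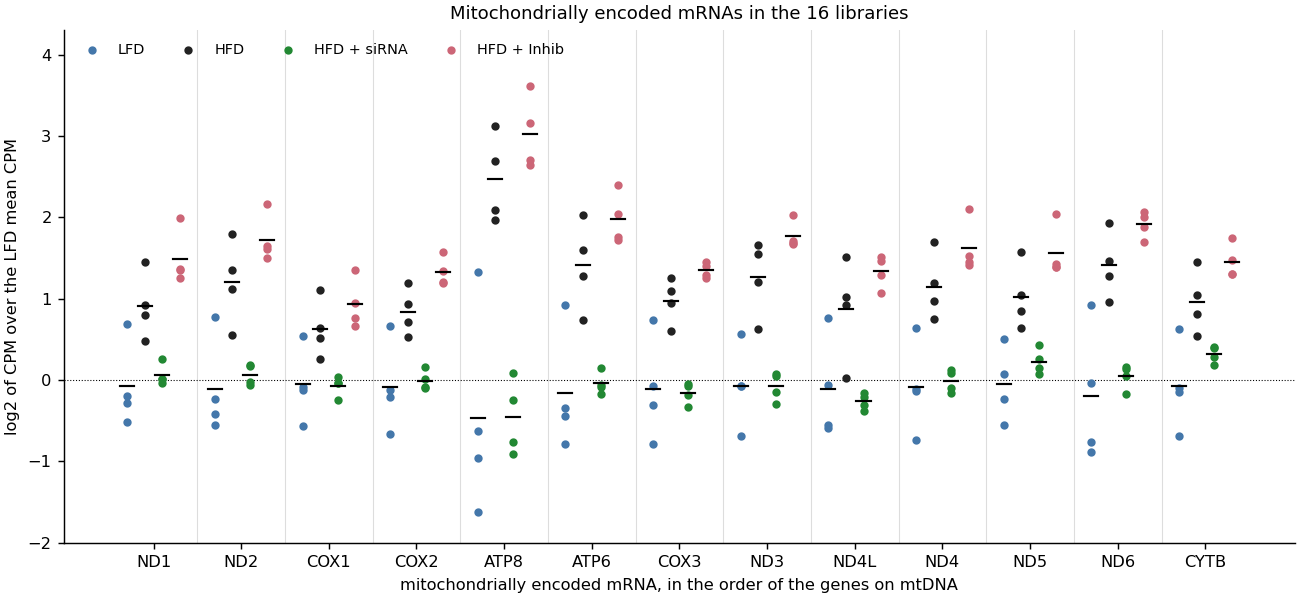
Level of each mitochondrially encoded mRNA in each library, as log2 of its CPM over the LFD mean CPM (y axis), with genes in their order on mtDNA (x axis). Points are libraries coloured by group, and black bars are the means of 4. HFD and HFD + Inhib lie above HFD + siRNA for every gene, ATP8 has the widest gap, and the highest LFD point of each gene is LFD replicate 4.

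Of the 83 nuclear members, 79 had enough counts to be tested. Cox7b2 and Cox8c had no count in any library, and Cox6a2 and Cox8b, subunit isoforms known from heart and skeletal muscle, had 0 to 3 counts.

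In HFD versus LFD, 15 of 79 nuclear members fell and 1 rose, while 8.80% of all genes tested were called lower and 9.58% higher. The median was -0.21. Groups did not overlap for 17 lower and 0 higher members (9.69% and 10.7% of all genes). The 15 were 7 of complex I (among them Ndufb11, Ndufs7 and Ndufv1), 2 of complex III (Uqcr10, Uqcrh), 3 of complex IV (Cox6c, Cox7a1, Cox7a2l) and 3 of ATP synthase (Atp5b, Atp5d, Atp5o). After the correction 10 were lower (background 7.21%) and 3 higher (8.56%), with a median of -0.10. Without LFD replicate 3 the uncorrected count of lower members was 5, without LFD replicate 1 or HFD replicate 3 it was 8.

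In HFD + siRNA versus HFD, 15 nuclear members rose and 1 fell, beside backgrounds of 5.20% higher and 6.55% lower. The median was 0.18. Groups did not overlap for 36 higher and 3 lower members (10.1% and 10.4% of all genes). Of those that rose, 10 belong to complex I, 3 to complex III and 2 to ATP synthase, and none to complexes II or IV (at an unadjusted p under 0.05, 0 and 5 were higher, and DESeq2 called 0 and 1). After the correction 4 were higher (Ndufb3, Ndufb11, Ndufs8, Ndufv3; background 4.46%) and 4 lower (Ndufa8, Ndufc2, Ndufs1, Uqcrc1; background 5.41%), with a median of 0.08. Of the 15 that fell with HFD, 7 were among those that rose with siRNA (Atp5o, Ndufa1, Ndufb9, Ndufb10, Ndufb11, Uqcr10, Uqcrh), and the same 7 rose with the inhibitor. All 3 comparisons use the HFD libraries, so a low value there enters each. The share of all genes with the same overlap is not given here, so 7 of 15 has no background to be read against. Leaving out single libraries moved the count of 15 to between 7 and 13, with 7 without HFD + siRNA replicate 1 or 4, 9 without its replicate 2 or 3, and 8 without HFD replicate 2 or 3.

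In HFD + Inhib versus HFD, 37 of 79 nuclear members rose and none fell (0 were lower at an unadjusted p under 0.05, and DESeq2 called 41 higher and 0 lower), while 9.80% of all genes tested were called higher and 8.42% lower. The median was 0.32, beside 0.00 over all genes. Groups did not overlap for 35 higher members, Cox6b2 among them, and 0 lower members (12.4% and 10.9% of all genes). Without Cox6b2, which passed the filter on low counts only through the HFD + Inhib libraries, the counts with the inhibitor are 36 of 78 over HFD and 19 of 78 over HFD + siRNA. By complex, 18 of 37 tested members of complex I, 0 of 4 of complex II, 4 of 8 of complex III, 8 of 13 of complex IV (7 of 12 without Cox6b2) and 7 of 17 of ATP synthase rose. The corrected count was 36 of 76 (35 of 75 without Cox6b2) higher and 0 lower (backgrounds 10.0% and 11.4%), with a median of 0.25. With no scaling beyond the library total the uncorrected count was 22. Without HFD + Inhib replicate 3, which was the lowest of its group for 64 of the 79, the uncorrected count was 51.

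In HFD + Inhib versus HFD + siRNA, 20 nuclear members were higher and 1 (Ndufa13) lower, beside backgrounds of 17.3% and 16.6%, so the share of the nuclear members called higher was nearer that of all genes tested than in the comparison with HFD. Groups did not overlap for 22 higher members, Cox6b2 among them, and 2 lower members (16.7% and 15.8% of all genes). After the correction 29 of 76 were higher (28 of 75 without Cox6b2, background 13.9%) and 0 lower.

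**Figure D3:**
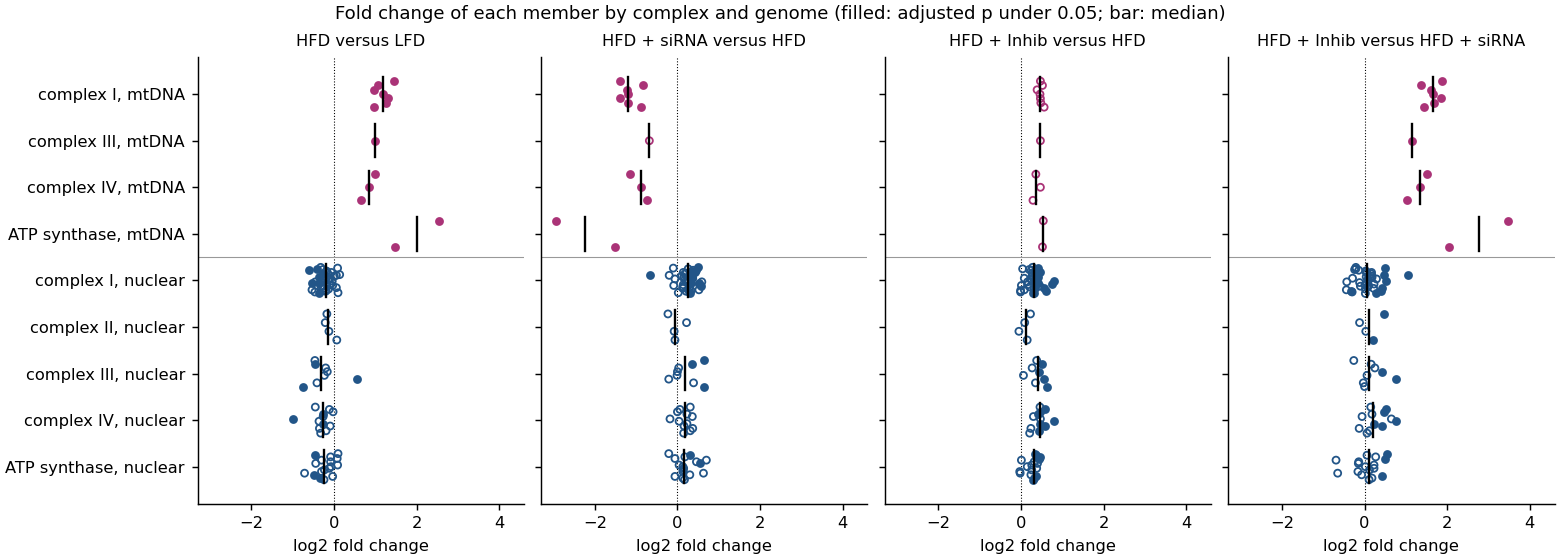
Log2 fold change (x axis) of each tested member except Cox6b2 by complex and genome (y axis) in the 4 comparisons. Filled points have an adjusted p under 0.05, open points do not, and black bars are medians. Mitochondrial members lie to the right in HFD versus LFD and to the left in HFD + siRNA versus HFD, and 36 of 78 nuclear members are filled and to the right in HFD + Inhib versus HFD.

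Complex I holds the nuclear gene in which the treatments differed most clearly, Ndufs1, which codes for its largest iron-sulphur subunit in the arm that takes electrons from NADH. It was 88.6, 103, 88.1 and 99.3 CPM in LFD and 95.2, 105, 112 and 106 in HFD. It was 65.9, 70.1, 64.8 and 61.7 in HFD + siRNA and 143, 131, 129 and 139 in HFD + Inhib. All HFD + siRNA libraries lay below all other libraries and all HFD + Inhib libraries above them. Ndufs1 fell by 0.67 with siRNA (SE 0.08, adjusted p = 0.00014), rose by 0.38 with the inhibitor (SE 0.08, adjusted p = 0.0027) and was 1.05 higher, 2.06-fold, in HFD + Inhib than in HFD + siRNA (SE 0.08, adjusted p = 1.3e-07, edgeR's quasi-likelihood test). The corrected values were -0.79, 0.23 and 1.02, all called. Leaving out any single library kept the uncorrected values between -0.72 and -0.63, 0.33 and 0.41, and 1.02 and 1.09. It was the only nuclear member called lower with siRNA before the correction.

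Ndufb3 and Ndufb1, accessory subunits of the membrane arm, rose most with the inhibitor among the nuclear members of complex I. Ndufb3 was 28.6, 26, 29.4 and 32.4 CPM in HFD and 53.3, 52.6, 46.4 and 50.2 in HFD + Inhib, without overlap. It rose by 0.80 (SE 0.11, adjusted p = 9.9e-05, edgeR's quasi-likelihood test), 0.61 after the correction. In HFD + siRNA it was 30.2, 44.5, 30.8 and 34.6, 1 library being higher than the rest. Ndufb1 rose by 0.75 with the inhibitor (SE 0.14, adjusted p = 0.00136) and by 0.52 with siRNA (SE 0.14, adjusted p = 0.0243), from 30.1 ± 5.54 CPM in HFD to 50.6 ± 8.86 and 43.2 ± 1.92 (SD, n = 4), and it had no GC value for the correction.

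Ndufb11, another accessory subunit of the membrane arm, lay lowest in HFD. It was 83.3, 73.2, 89.4 and 70.4 CPM in LFD, 59.8, 54.5, 49.1 and 57.3 in HFD, 85.3, 79.3, 76.4 and 77.3 in HFD + siRNA, and 85.6, 78.8, 55.7 and 72.0 in HFD + Inhib. HFD overlapped HFD + Inhib through the third library of the latter and did not overlap the others. Ndufb11 fell by 0.52 with HFD (adjusted p = 0.00692) and rose by 0.53 with siRNA (adjusted p = 0.00894) and by 0.40 with the inhibitor (adjusted p = 0.0225, edgeR's quasi-likelihood test, SE 0.12 each), and all 3 calls held after the correction (-0.44, 0.41 and 0.35). Ndufs7, which carries an iron-sulphur cluster next to the quinone site, fell by 0.60 with HFD (SE 0.15, adjusted p = 0.0123). Ndufa7, an accessory subunit, rose by 0.56 with siRNA (SE 0.17, adjusted p = 0.0367) and was not called after the correction (0.29). Ndufv1, the flavin subunit that receives electrons from NADH, fell by 0.41 with HFD (SE 0.13, adjusted p = 0.0417), and it was not called after the correction (-0.20).

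Complex II has no mitochondrial subunit. None of its 4 genes was called by edgeR in HFD versus LFD or in either treatment versus HFD. At an unadjusted p under 0.05 the counts in these comparisons were 0, 1 lower and 1 higher, and DESeq2 called 0, 1 lower and 1 higher. With backgrounds of 5.20% to 9.80% of all genes, 0 of 4 says little about this complex. Between the treatments 2 of 4 were called higher (17.3% of all genes). Sdha, its flavoprotein, was 387, 416, 420 and 435 CPM in LFD, 436, 415, 439 and 449 in HFD, 438, 422, 419 and 392 in HFD + siRNA, and 496, 510, 447 and 482 in HFD + Inhib. Its inhibitor libraries overlapped those of HFD through 1 library. Sdha was 0.21 higher in HFD + Inhib than in HFD + siRNA (SE 0.07, adjusted p = 0.0366) and Sdhd, a membrane anchor, 0.47 higher (SE 0.09, adjusted p = 0.00064, edgeR's quasi-likelihood test). After the correction Sdhd was called (0.39) and Sdha was not (0.17). Sdhb, the iron-sulphur subunit, was at 121 ± 13.8, 111 ± 8.15, 105 ± 9.63 and 107 ± 17.6 CPM (SD, n = 4) in the 4 groups in the same order, and its 4 comparisons were not called.

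In complex III, the small subunits Uqcr10 and Uqcrb were called in opposite directions in HFD versus LFD and both rose with the inhibitor. Uqcr10 was 76.5, 58.6, 83 and 64.4 CPM in LFD, 46.0, 40.0, 34.5 and 46.9 in HFD, 69.2, 60.3, 68.3 and 62.6 in HFD + siRNA, and 79.0, 72.1, 46.6 and 61.8 in HFD + Inhib. HFD was below LFD and HFD + siRNA without overlap, and the third HFD + Inhib library fell within the HFD range. Uqcr10 fell by 0.75 with HFD (SE 0.15, adjusted p = 0.00333) and rose by 0.64 with siRNA (SE 0.15, adjusted p = 0.0126) and by 0.63 with the inhibitor (SE 0.15, adjusted p = 0.00728, edgeR's quasi-likelihood test). The corrected values were -0.34, 0.28 (not called) and 0.53.

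Uqcrb, which lies next to the quinone site of complex III, was the only nuclear member called higher with HFD before the correction. It was 45.9, 65.9, 59.0 and 85.4 CPM in LFD, 87.1, 76.9, 115 and 95.9 in HFD, 66.4, 105, 70.6 and 81.4 in HFD + siRNA, and 116, 133, 164 and 135 in HFD + Inhib. LFD replicate 4 overlapped HFD, and the inhibitor libraries were above all others. Uqcrb rose by 0.55 with HFD (SE 0.18, adjusted p = 0.0471) and by 0.55 with the inhibitor (SE 0.18, adjusted p = 0.0454, edgeR's quasi-likelihood test), both near the threshold. The corrected values were 0.45, called, and 0.29, not called. Reads of Uqcrb are uncertain, since 25.4% of its 50-base words occur in other genes. Uqcrq, which lies beside cytochrome b, rose by 0.64 with siRNA (SE 0.17, adjusted p = 0.0223), not called after the correction (0.44), while Uqcrc1, a core subunit, and Uqcrfs1, the Rieske iron-sulphur protein, were called in none of the 4 comparisons before the correction. After it Uqcrc1 was called lower with siRNA (-0.28) and higher in HFD + Inhib than in HFD + siRNA (0.31).

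Complex IV includes a tissue isoform that was measurable with the inhibitor and near 0 elsewhere. Cox6b2 is the isoform of subunit 6B known from testis, and Cox6b1 the isoform of other tissues. Cox6b2 had 0, 4, 5 and 5 counts in LFD, 4, 8, 4 and 2 in HFD, 2, 1, 1 and 5 in HFD + siRNA, and 64, 31, 18 and 60 in HFD + Inhib. The 4 inhibitor libraries lay above all others, with the third library again lowest. As levels these were 0.142 ± 0.0526 CPM in HFD and 1.46 ± 0.728 in HFD + Inhib (SD, n = 4). Only the HFD + Inhib libraries carried Cox6b2 past the filter on low counts, so it had to differ to be tested and no fold or test is given. None of its 50-base words occurs in another gene.

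Even so, the testis isoform stayed a trace beside its sister gene. Cox6b1 was 123, 105, 137 and 126 CPM in HFD and 178, 194, 182 and 180 in HFD + Inhib, again without overlap. It rose by 0.58 (SE 0.09, adjusted p = 0.00038, edgeR's quasi-likelihood test), 0.42 after the correction. In LFD and HFD + siRNA it was 130 ± 14 and 137 ± 9.38 CPM (SD, n = 4).

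Other isoforms of complex IV subunits were measured as well. Cox7a1, the heart and muscle form of subunit 7A, was 1.38, 1.36, 2.18 and 0.758 CPM in LFD and 0.663, 0.514, 1.14 and 0.586 in HFD. The groups overlapped, and its fall of 0.99 (SE 0.32, adjusted p = 0.0448, edgeR's quasi-likelihood test) was not called after the correction (-0.55). The liver form Cox7a2 was called in no comparison, and neither were Cox6a1 and Cox8a, although Cox8a was called higher with the inhibitor after the correction (0.46 over HFD). Cox7a2l, a relative of subunit 7A, fell by 0.27 with HFD (SE 0.08, adjusted p = 0.0202) and rose by 0.41 with the inhibitor (SE 0.08, adjusted p = 0.00131), and both held after the correction. Cox6c fell by 0.26 with HFD (SE 0.09, adjusted p = 0.0487) and rose by 0.47 with the inhibitor (SE 0.09, adjusted p = 0.00144), of which the second was called after the correction (0.29). Cox6c2 was called higher with the inhibitor over HFD on 17 to 70 counts per library. Its reads are uncertain, since it shares 52.7% of its 50-base words with Cox6c. Cox5a was called in no comparison.

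**Figure D4:**
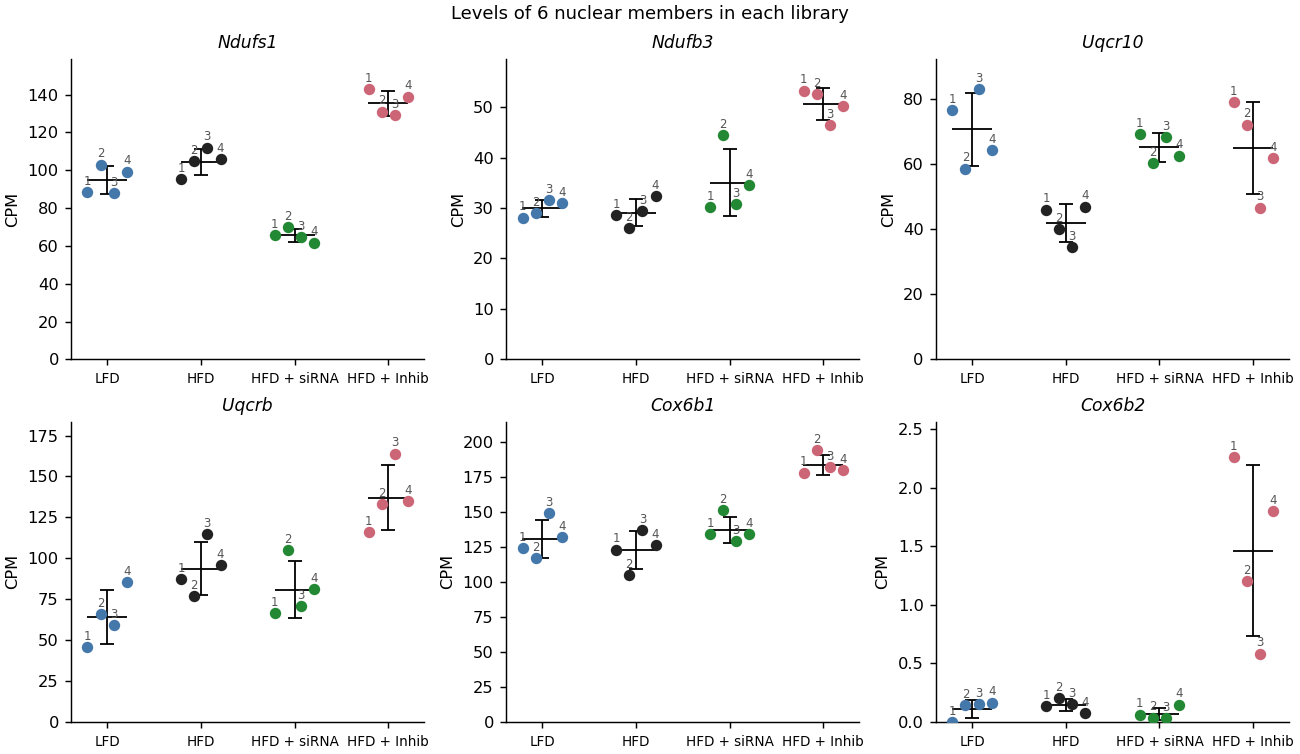
Levels of Ndufs1, Ndufb3, Uqcr10, Uqcrb, Cox6b1 and Cox6b2 in CPM (y axes, from 0) by group. Points are libraries with their replicate number, and bars show the mean ± SD of 4. Ndufs1 is lowest in HFD + siRNA and highest in HFD + Inhib without overlap, and Cox6b2 is at 0.583 to 2.26 CPM with the inhibitor and at most 0.205 elsewhere.

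Of the 17 nuclear members of ATP synthase, 3 fell with HFD (8.80% of all genes tested), 2 rose with siRNA (5.20%) and 7 rose with the inhibitor over HFD (9.80%). After the correction the counts were 3, 0 and 6 of 15 (backgrounds 7.21%, 4.46% and 10.0%), and 1 rose with HFD (8.56%). Atp5b, the beta subunit of its catalytic head and the most abundant nuclear member, was 923, 848, 932 and 805 CPM in LFD, 705, 697, 653 and 712 in HFD, 802, 744, 746 and 732 in HFD + siRNA, and 981, 891, 702 and 851 in HFD + Inhib. HFD lay below LFD and HFD + siRNA without overlap. Atp5b fell by 0.34 with HFD (SE 0.10, adjusted p = 0.0236) and rose by 0.31 with the inhibitor (SE 0.10, adjusted p = 0.0374), and its value with siRNA was 0.13 (adjusted p = 0.434, edgeR's quasi-likelihood test). Atp5a1, the alpha subunit, rose by 0.29 with the inhibitor (SE 0.09, adjusted p = 0.0401), and its value in HFD versus LFD was -0.24 (adjusted p = 0.0783). Atp5pb, of the stalk that holds the head in place, was 174, 184, 175 and 155 CPM in HFD + siRNA and 258, 250, 251 and 250 in HFD + Inhib, higher by 0.55 (SE 0.08, adjusted p = 8.6e-05). Atp5g1, Atp5g2 and Atp5g3, which code for the same ring protein, were called in no comparison before the correction.

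Atp5l, a membrane subunit, had 13 to 222 counts per library. It held 0.524% to 6.06% of the counts that it and Gm10221 had together, a gene that holds 4.0% of its 50-base words, and whether reads of Atp5l were counted there was not tested. The pair was at 122 ± 11.4, 110 ± 12.3, 112 ± 5.06 and 140 ± 25.8 CPM over the groups in the same order (SD, n = 4). ND4L had 40.3% to 89.6% of the counts it shared with the nuclear copy Gm10222, and the sums of this pair were 568 ± 341, 1168 ± 333, 531 ± 36.9 and 1580 ± 277 CPM. Other mitochondrial members also share words of 50 bases with nuclear genes: COX2 100%, COX3 99.9%, ND3 98.0%, ND4 62.2%, COX1 51.1%, ND2 8.2% and ND5 7.6%, so their levels are uncertain by the reads that counting split between copies. ATP8, CYTB, ND1 and ND6 share none, but words of 50 bases are too long to show the 43 bases that ATP8 shares with ATP6.

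Per length, mitochondrial members were the most abundant of all. In LFD they ran from 603 ± 379 CPM per kilobase (ND6) to 7831 ± 2561 (COX1), followed by COX2 at 5028 ± 2054 and COX3 at 4483 ± 2092 (SD, n = 4). These neighbours did not differ beyond their spread. The highest nuclear member, Atp5b, had 458 ± 31.7 CPM per kilobase in LFD, within the spread of ND6, and the median nuclear member 103 (80 genes with a length). In HFD + Inhib COX1 reached 15219 ± 3400 CPM per kilobase and ATP8 7688 ± 2521, which was 906 ± 919 in LFD.

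**Figure D5:**
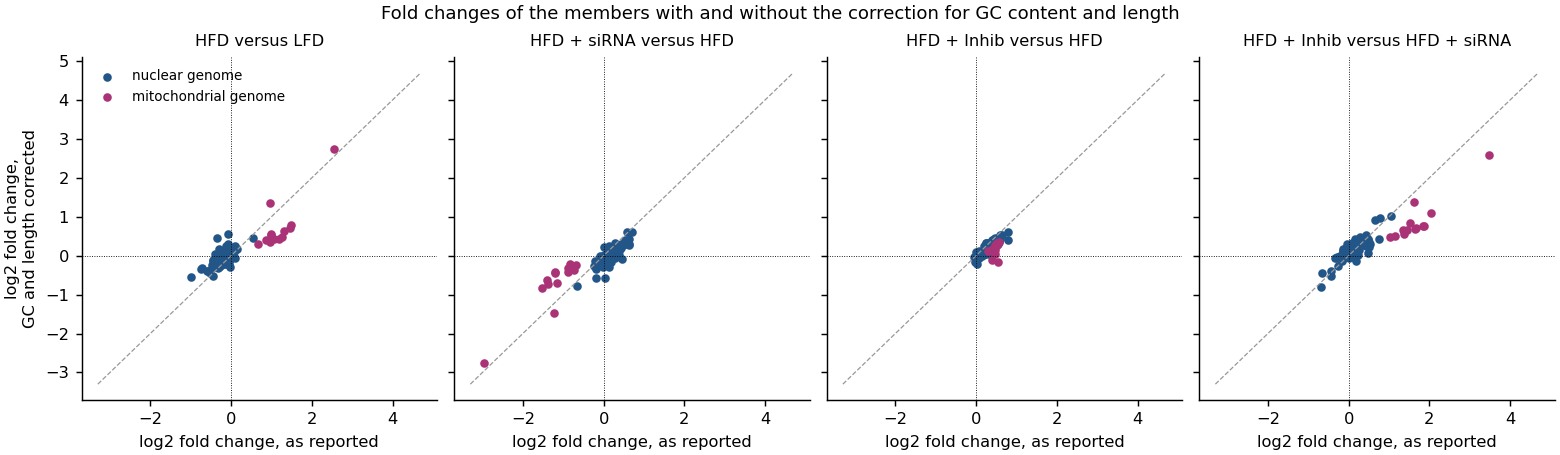
Log2 fold change of each member except Cox6b2 as reported (x axis) and after removal of the trend with GC content and length (y axis) in the 4 comparisons, with the dashed line marking equal values. Mitochondrial members lie nearer to 0 on the y axis than on the x axis, except ATP8 and ND4L in HFD versus LFD and ND4L in HFD + siRNA versus HFD, and most nuclear members in HFD + Inhib versus HFD stay above 0.

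Genes that serve the chain without being members were followed in the same comparisons. Of 17 tested subunits and carriers outside the rule, 10 rose and none fell in HFD + Inhib versus HFD (9.80% and 8.42% of all genes tested), among them Ndufab1 (0.80, adjusted p = 0.00024), the acyl carrier protein of complex I, and cytochrome c (Cycs, 0.64, adjusted p = 0.00069), the carrier between complexes III and IV. Cox4i1, a core-binding subunit of complex IV, fell by 0.42 with HFD and rose by 0.49 with siRNA and 0.36 with the inhibitor (adjusted p = 0.0224, 0.015 and 0.0449, edgeR's quasi-likelihood test). After the correction its values were -0.24, not called, and 0.32 and 0.39, both called. Cyc1, cytochrome c1 of complex III, was called in none before the correction and was 0.28 higher in HFD + Inhib than in HFD + siRNA after it. In HFD versus LFD 5 rose and 2 fell (9.58% and 8.80% of all genes), in HFD + siRNA versus HFD 2 rose and 1 fell (5.20% and 6.55%), and in HFD + Inhib versus HFD + siRNA 9 were higher and 1 lower (17.3% and 16.6%). After the correction, with 16 of these genes covered, 2 rose and 1 fell in HFD versus LFD (backgrounds 8.56% and 7.21%), 3 rose and 1 fell with siRNA (4.46% and 5.41%), 10 rose and none fell with the inhibitor (10.0% and 11.4%), and 8 were higher and 1 lower between the treatments (13.9% and 15.7%). Atpif1, which holds back ATP synthase when it runs in reverse, rose by 0.60 with HFD (SE 0.15, adjusted p = 0.0121) and was called in no other comparison.

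Of 53 assembly factors tested, 10 rose and none fell with the inhibitor over HFD (9.80% and 8.42% of all genes tested), among them Lyrm7 (0.89) and Cox17 (0.59), which mature the Rieske protein and deliver copper to complex IV. In HFD versus LFD 3 rose and 3 fell, a smaller share than of all genes (9.58% and 8.80%), in HFD + siRNA versus HFD 1 rose and 3 fell (all genes 5.20% and 6.55%), and in HFD + Inhib versus HFD + siRNA 13 were higher and 3 lower (all genes 17.3% and 16.6%). After the correction, with 52 covered, 3 rose and none fell in HFD versus LFD (backgrounds 8.56% and 7.21%). With siRNA none rose and 1 fell (4.46% and 5.41%), and with the inhibitor over HFD 9 rose and none fell (10.0% and 11.4%). Between the treatments 7 were higher and 3 lower (13.9% and 15.7%), a share of higher genes near that of all genes.

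Genes of mtDNA maintenance and transcription were read beside the mitochondrial mRNAs. Of 32, 1 rose and 2 fell in HFD versus LFD and 2 rose and 1 fell in HFD + siRNA versus HFD, beside 9.58% and 8.80%, and 5.20% and 6.55%, of all genes tested. In HFD + Inhib versus HFD, where no mitochondrial mRNA was called, 10 rose and none fell (9.80% and 8.42% of all genes). Between the treatments, where all 13 were higher with the inhibitor, 18 were higher and 1 lower (17.3% and 16.6%). After the correction, with 31 of the genes covered, 3 rose and 3 fell in HFD versus LFD (backgrounds 8.56% and 7.21%), 1 rose and 4 fell with siRNA (4.46% and 5.41%), 7 rose and none fell with the inhibitor over HFD (10.0% and 11.4%), and 12 were higher and none lower between the treatments (13.9% and 15.7%). Tfam, which packages mtDNA and starts its transcription, was 34.4 ± 1.11 CPM on HFD alone, 30.4 ± 3.78 with siRNA and 43.5 ± 4.79 with the inhibitor (SD, n = 4), a rise of 0.34 with the inhibitor (SE 0.09, adjusted p = 0.0167) that was not called after the correction (0.16). Polrmt, the mitochondrial RNA polymerase, fell by 0.61 with HFD (SE 0.16, adjusted p = 0.0152), -0.38 after the correction and still called. Lrpprc, which stabilises mitochondrial mRNAs, was called in none of the 4 comparisons, with values of -0.03, -0.02, 0.09 and 0.11.

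Among 13 regulators of respiratory chain transcription, 2 rose and 2 fell in HFD versus LFD (9.58% and 8.80% of all genes tested), none was called in HFD + siRNA versus HFD (2 lower at an unadjusted p under 0.05, 1 by DESeq2), and 2 rose and 1 fell in HFD + Inhib versus HFD (9.80% and 8.42%). Between the treatments 5 were higher and none lower (17.3% and 16.6%). Ppara, the nuclear receptor that drives fatty acid oxidation genes, rose by 0.81 with HFD (SE 0.13, adjusted p = 7.6e-04), and Esrrg, an estrogen-related receptor, by 1.5 (SE 0.35, adjusted p = 0.00868, edgeR's quasi-likelihood test), both without overlap and both called after the correction. The transcription factors Nrf1 (-0.45, adjusted p = 0.00267) and Yy1 (-0.25, adjusted p = 0.0397) fell, of which Yy1 was not called after it. With the inhibitor over HFD, Gabpa, the DNA-binding subunit of the GA-binding protein, rose by 0.36 (adjusted p = 0.0272) and the corepressor gene Nrip1 by 0.46 (adjusted p = 0.0217), while Gabpb2, of a partner subunit of the first, fell by 0.23 (adjusted p = 0.0338), and all 3 were called after the correction. With so few genes the counts in the other comparisons are near the shares of all genes or move with 1 or 2 genes. Between the treatments the share called higher was 38.5%, above that of all genes, from 5 genes. Ppargc1a, the coactivator PGC-1α, was 16.8, 12.9, 25.3 and 26.6 CPM in HFD and 12.3, 10.7, 14.6 and 9.08 in HFD + siRNA. These groups overlapped and its value of -0.80 (SE 0.27, adjusted p = 0.0616, edgeR's quasi-likelihood test) was not called. Esrra, a nuclear receptor that works with it, was called in none.

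Markers of other cells were set beside these counts. Of the hepatocyte markers 3 of 7 fell in HFD + Inhib versus HFD (Alb, Ttr, Cps1) and none rose, while 8.42% of all genes tested were called lower and 9.80% higher, and their summed level was 76939 ± 8880, 66076 ± 6545, 71480 ± 5084 and 40980 ± 1623 CPM over the groups in the same order (SD, n = 4), most of it Alb. Macrophage markers summed to 228 ± 20.4 CPM in HFD and 186 ± 31.8 in HFD + Inhib (1 of 8 fell, most abundant Clec4f), stellate markers to 419 ± 42.3 and 323 ± 12.9 (2 of 8 fell, most abundant Reln), endothelial markers to 319 ± 19.6 and 305 ± 9.11 (1 of 8 rose, most abundant Stab2) and lymphocyte markers to 5.20 ± 2.42 and 2.46 ± 0.660 (3 of 7 fell, most abundant Cd79a). Adipocyte markers went from 6.52 ± 3.41 to 49.7 ± 19.7 CPM, through Cfd and Adrb3, which rose and were the 2 tested, while Adipoq was at most 0.0971 CPM with the inhibitor and Lep was at 0 there. Cholangiocyte markers, mostly Spp1, were at 38.5 ± 8.71 and 39.2 ± 12.3, muscle markers at 0.368 ± 0.188 and 0.415 ± 0.123 with Mylpf as the most abundant, and erythroid markers, mostly Hbb-bs, at 581 ± 143 and 526 ± 135. In HFD + Inhib versus HFD + siRNA 5 of 7 hepatocyte, 5 of 8 macrophage, 2 of 7 lymphocyte, 2 of 8 stellate, 2 of 8 endothelial and 1 of 5 erythroid markers were lower, and 1 of 8 endothelial and 2 of 2 adipocyte markers higher, beside 16.6% of all genes lower and 17.3% higher. In HFD + siRNA versus HFD 1 marker of all these lists was called, Serpina1a of hepatocytes, which rose (5.20% of all genes higher, 6.55% lower). In HFD versus LFD Apoa1, Serpina1a and Adrb3 fell and Reln, Spp1 and Cfd rose (8.80% of all genes lower, 9.58% higher). The part of the fall of the most abundant hepatocyte mRNAs in the rise of the nuclear members with the inhibitor was not tested.

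Promoters were examined because many nuclear members rose in 1 comparison. RefSeq promoter windows of the GRCm38.p6 build, 250 bases before to 50 after the start, were matched for 69 of the 83 nuclear members. The motifs searched on both strands were GCGCA followed by any base and GCGC (NRF1), CCGGAAGT or CCGGAAGC (ETS factors such as GABP) and AAGATGGC (YY1). NRF1 matched 23.2% of the members, 4.8% of 27025 promoters and 8.8% of the 12799 promoters of genes tested. ETS matched 14.5%, 6.6% and 11.8%, and YY1 13%, 2.9% and 4.2%. At least 1 motif was present in 31 of 69 members (44.9%), in 13% of all promoters and in 22.2% of the promoters of genes tested. Among members that rose with the inhibitor 10 of 28 had one, and among those that did not 21 of 39.

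Promoters of 3 genes are shown, with motif matches in capitals. Ndufb4, an accessory subunit of complex I that rose by 0.34 with the inhibitor (adjusted p = 0.017), has 3 NRF1 matches. Cox6b1 has 1 ETS match and Cox6b2 none. The windows are chr16:37654319-37654618 (minus strand), chr7:30626065-30626364 (minus strand) and chr7:4753045-4753344 (minus strand), each written in the direction of transcription.
Ndufb4: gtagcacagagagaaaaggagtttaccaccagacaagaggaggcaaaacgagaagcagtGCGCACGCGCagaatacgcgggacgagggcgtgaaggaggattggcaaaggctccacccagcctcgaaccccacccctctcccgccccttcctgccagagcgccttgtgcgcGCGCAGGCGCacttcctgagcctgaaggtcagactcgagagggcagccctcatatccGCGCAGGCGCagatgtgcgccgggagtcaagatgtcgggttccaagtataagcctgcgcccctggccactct
Cox6b1: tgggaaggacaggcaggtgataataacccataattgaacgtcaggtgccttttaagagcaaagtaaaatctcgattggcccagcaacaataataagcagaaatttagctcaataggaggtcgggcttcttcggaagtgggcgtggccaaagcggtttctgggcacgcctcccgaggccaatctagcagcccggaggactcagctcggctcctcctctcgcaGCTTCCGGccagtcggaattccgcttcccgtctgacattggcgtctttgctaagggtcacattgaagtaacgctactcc
Cox6b2: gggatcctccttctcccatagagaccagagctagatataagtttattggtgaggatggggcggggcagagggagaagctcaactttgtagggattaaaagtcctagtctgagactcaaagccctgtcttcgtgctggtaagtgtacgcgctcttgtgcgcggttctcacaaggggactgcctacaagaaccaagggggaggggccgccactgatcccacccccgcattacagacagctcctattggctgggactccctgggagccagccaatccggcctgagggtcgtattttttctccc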

How the data were processed

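Liver RNA of 16 libraries was analysed from a table of expected counts per gene that the authors deposited with no fold changes or p-values. The submitters' processing notes name STAR, RSEM and mm39, without roles, while the study's methods name a targeted assay (HTG EdgeSeq), so which assay gave these counts is open, and the gene annotation is not given in the sources used here. Of the values 15.1% were not whole and were rounded. Genes were kept by edgeR's filterByExpr (minimum count 10, total 15), which left 18335 of 33142 genes with a count. All 4 groups were fitted together with TMM scaling (factors 0.929 to 1.09) and edgeR's quasi-likelihood test (edgeR 4.0.16, R 4.3.3), with p-values adjusted by Benjamini-Hochberg over all genes and called under 0.05. The common dispersion was 0.038. Levels are CPM. No source used here ties each library to a mouse of its own, so p-values measure the spread between these libraries, which may be technical.

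For the correction, a trend of each library's log2 values on GC content and length (5 degrees of freedom, fitted on genes whose average log2 CPM reached 3, lengths and GC from GENCODE M21 of GRCm38) was removed, which covered 15871 genes (86.6%). DESeq2 1.42.0 was an alternative. The fits were also run on simulated data, whose outcome is not given here. Named genes were all mitochondrial members, core subunits, tissue isoforms, the 3 largest called rises and falls per comparison (average log2 CPM from 1), and chosen carriers and regulators. Values had been seen before Ndufb4, Lyrm7, Cox17 and the 7 called regulators Ppara, Esrrg, Nrf1, Yy1, Gabpa, Gabpb2 and Nrip1 were picked. The members and lists were chosen with earlier results of these data known. 1 item is not reported here.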

Additional observations from a re-analysis of the deposited data

Results flagged for a closer look

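In 240 groups of 4 libraries, 18 held a library that lay far from the other 3 of its group by Dixon's test, and chance flags about 1 in 20 groups. LFD replicate 4 was high in mitochondrial rRNA (0.147% of the counts, the others 0.00445% to 0.0125%), ATP6 (3164 CPM, the others 968 to 1316), ATP8 (464, the others 59.9 to 120) and ND2 (3233, the others 1289 to 1603). HFD + Inhib replicate 3 was high in ND1 (9243 CPM, the others 5549 to 5994), ND3 (1681, the others 1318 to 1352), ND4 (13980, the others 8681 to 9392) and ND5 (11588, the others 7362 to 7514), and low in Ndufb1 (37.4, the others 53.7 to 56.2) and Lrpprc (118, the others 134 to 136). HFD replicate 3 was low in 7SL RNA (3.44% of the counts, the others 7.01% to 7.52%) and Uqcrfs1 (107 CPM, the others 126 to 128) and high in Atpif1 (15.1, the others 11.3 to 11.5).

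In other libraries, mitochondrial rRNA was 0.0453% in HFD + siRNA replicate 2 (the others 0.00529% to 0.00957%), Cox6b2 was 0 CPM in LFD replicate 1 (the others 0.143 to 0.165), Cox7a2l was 74.2 CPM in LFD replicate 3 (the others 59.7 to 61.7), Atp5pb was 258 CPM in HFD + Inhib replicate 1 (the others 250 to 251) and Lrpprc was 141 CPM in LFD replicate 2 (the others 120 to 121).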

How the results depend on the processing

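Counts of called members were recomputed under each alternative and without each library in turn. In HFD versus LFD the 1 nuclear member higher became 2 with no scaling, 0 with only the 2 groups fitted, 3 with the GC and length correction, 3 with that correction and the replicate block and 0 at an adjusted p under 0.01, and 0 to 1 without single libraries. The 15 lower became 21 by DESeq2, 5 with no scaling, 10 with the correction, 8 with no filter, 8 with only the 2 groups, 4 under 0.01, and 5 to 19 without single libraries. The 13 mitochondrial members higher became 8 with the correction, and 10 to 13 without single libraries. In HFD + siRNA versus HFD the 15 nuclear members higher became 9 with no scaling, 4 with the correction, 3 with the correction and block, 2 under 0.01 and 7 to 13 without single libraries. The 1 lower became 3 by DESeq2, 4 with no scaling, 4 with the correction and 5 with the correction and block. The 12 mitochondrial members lower became 6, 7 and 6 with the correction, the correction and block, and under 0.01, and 7 to 13 without single libraries. In HFD + Inhib versus HFD the 37 nuclear members higher became 22 with no scaling, 24 under 0.01 and 25 to 51 without single libraries, and the 0 mitochondrial members became 4 without the 3 libraries that stood apart, an alternative chosen after seeing the data, and 0 to 2 without single libraries. In HFD + Inhib versus HFD + siRNA the 1 nuclear member lower became 2 with no scaling, 0 with no filter, 0 with the correction, 0 under 0.01, 0 without the 3 libraries and 0 to 3 without single libraries, the 20 higher became 17 to 28 without single libraries and 16 to 30 under the other alternatives, and the 13 mitochondrial members became 12 with the correction and were 13 under the others. The cause of these moves was not tested. With no scaling the median of all genes shifted by 0.12, -0.11, -0.12 and -0.01 in the 4 comparisons.

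Replicate numbers did not pair the libraries. Libraries with the same number correlated at -0.132 to 0.336, with 6 of 24 pairs over 0.1, and 4 of 16 libraries correlated best with their own number. With the replicate block nuclear members higher and lower were 1 and 14, 14 and 1, 38 and 0, and 18 and 1 in the 4 comparisons, and mitochondrial members called were 13, 12, 0 and 13. Of 89 named calls, 47 held in every alternative run, 42 were lost in at least 1 and 0 reversed.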
